A study of Mus musculus with 6 samples.

Results

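Histone genes were examined in poly(A)-selected RNA of a pair of sorted mouse bone marrow fractions. Members were all genes whose symbol begins with Hist and a cluster number, or with H1f, H2ac, H2bc, H3c, H4c, H2af, H2az, H2ax or H3f, which gave 77 of 30733 symbols. They comprise 60 genes of the replication-dependent clusters (5 for H1, 17 for H2A, 15 for H2B, 11 for H3 and 12 for H4), 9 variant genes, 4 pseudogenes, 3 germ cell genes and 1 antisense RNA. The cells came from wild-type (WT) mice aged 12 months, are labelled as hematopoietic stem cells (the cells that give rise to all blood lineages), and were sorted by their surface level of MHC class II, the antigen-presenting complex, into MHCII-hi and MHCII-lo fractions with 3 libraries each. All 6 libraries share genotype, age and tissue, and no treatment is labelled. No label or protocol names the other markers of the sort, how many animals were used or whether they were pooled. The p-values below therefore weigh differences against library-to-library spread alone, which may be technical.

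Nucleosomes wrap DNA around an octamer of the core histones H2A, H2B, H3 and H4, and the linker histone H1 binds where DNA enters and leaves. Most histone protein in dividing cells comes from clustered, intronless genes that are transcribed in S phase. Their mRNAs normally end just after a conserved stem-loop, which is bound by SLBP and cut with the help of the U7 small nuclear RNP, and carry no poly(A) tail, although polyadenylated forms of some of them are known in differentiating cells. Variant genes such as those for H2A.Z, H3.3 and H1.0 lie outside the clusters, mostly have introns, give ordinary polyadenylated mRNAs and are expressed throughout the cell cycle. A library made by poly(A) capture is therefore built to hold variant mRNAs and only the tailed part of cluster mRNAs.

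Levels are in FPKM (fragments per kilobase of a transcript model, scaled to library size), a unit inferred from the files, and read depth is unknown. Summed FPKM were 327291 to 327861 in the MHCII-lo libraries and 344366 to 346595 in those of MHCII-hi. Log2 levels correlated at 0.991 to 0.993 within fractions and 0.945 to 0.947 between them. Of 15 stem cell markers, 10 reached a mean of 1 FPKM, while Hoxb5, Fgd5, Mecom and Slamf1, which mark the most primitive stem cells, were the lowest and lay below it. Cd48, which most stem cells lack at the surface, was at 106.6 ± 4.78 FPKM in MHCII-lo and 50.7 ± 2.03 FPKM in MHCII-hi, so these marker levels go in part against the label. Each of 20 neutrophil markers rose in MHCII-hi, from a summed level of 9407 to 9490 FPKM to one of 55010 to 55650 FPKM, which is 2.88% and 16.0% of all summed FPKM. FPKM are shares of a library. The median log2 fold change over all tested genes was −0.12 as deposited, and −0.01 after median-ratio scaling, which centres the genes by construction, or after scaling to the total without the neutrophil markers. In bulk RNA, fewer cells of a type and less RNA per cell cannot be told apart.

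The 3' ends of the cluster mRNAs are shown first, because they set what a poly(A) library can capture. A stem-loop of the histone form was searched in the GENCODE M21 transcripts of build GRCm38. It had a stem of 6 bases that begins with GG and ends with CT. A loop of 4 bases beginning with T and the exact complement of the stem had to follow. This form was found after the stop codon in 40 of the 60 cluster genes, at a median of 31 bases past the stop codon (range 21 to 58). Counted anywhere in a protein-coding transcript, it was in 72 of 21901 protein-coding genes of the annotation (0.329%), cluster genes included. Of the 20 cluster genes without it, 12 have transcripts annotated to stop at most 3 bases past the stop codon and 2 have no annotated coding part. Of the cluster genes shown, each is among those of highest mean within its type, though H2ac11 and H3c3 are low, at 3.81 and 3.39 FPKM. The sequences below are 29 bases of the sense strand around the loop, with its 16 bases in capitals, for these genes and the variant H2ax.
H1f2: caaaaGGCTCTTTTCAGAGCCaccactcc
H2ac11: acaaaGGCTCTTTTCAGAGCCacctaacc
H2bc8: ccaaaGGCTCTTTTCAGAGCCacccatac
H3c3: aaaaaGGCTCTTTTAAGAGCCacctaaga
H4c9: ttaaaGGCCCTTTTTAGGGCCaccacaaa
H2ax: acaaaGGCCCTTTTAAGGGCCaccacctc
H1f2, H2ac11 and H2bc8 carry the form found in 22 of the 40 genes, and H3c3 and H4c9 carry forms found in 5 and 2 of them. Of the variants, H2ax alone had a stem-loop of the searched form in its annotated transcript.

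A poly(A) signal, AATAAA or ATTAAA, lay in the last 50 bases of 13 of the 60 cluster transcripts, among them the cluster genes of highest and third-highest mean level, H1f2 and H4c9. Shown here are the last 30 bases of these transcripts and of variants, with the signal in capitals.
H1f2: ttctAATAAAaagcgtttagttttcattca
H4c9: tctgtttacATTAAAagtattctatgctaa
H3f3a: tgaaaaatAATAAAagtaccaatagaagaa
H1f0: aactttaaAATAAAactggaaaggaaaaaa
In the GENCODE model of H1f2 (chr13:23738808-23740367, plus strand, 1 exon, 1560 bases), the stem-loop begins 24 bases past the stop codon and 840 further bases follow it, whereas the RefSeq model is 725 bases long. The model of H4c9 (chr13:22040636-22041362, minus strand, 1 exon, 727 bases) has 330 bases after its loop. The 13 cluster genes with such a signal had a median level of 1.18 FPKM (range 0.278 to 86.5), and the 47 without had one of 1.96 FPKM (range 0.0717 to 20.0). The sums were 100.4 and 131.8 FPKM (MHCII-lo and MHCII-hi) for those with a signal, and 150.0 and 124.3 FPKM for those without. H1f2 alone held 68.6 and 104.4 FPKM of the former, so the higher MHCII-hi sum rests on this gene. Of the tested genes, 6 of 9 with a signal and 33 of 38 without had a negative log2 fold change (MHCII-hi against MHCII-lo). Those without a signal include the 12 transcripts annotated to stop at most 3 bases past the stop codon. Levels were not tested between these sets, and the deposited values do not tell which 3' end the counted RNAs had. FPKM divide by the length of the transcript model, and no source used here names the model behind the deposited values.

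**Figure D1:**
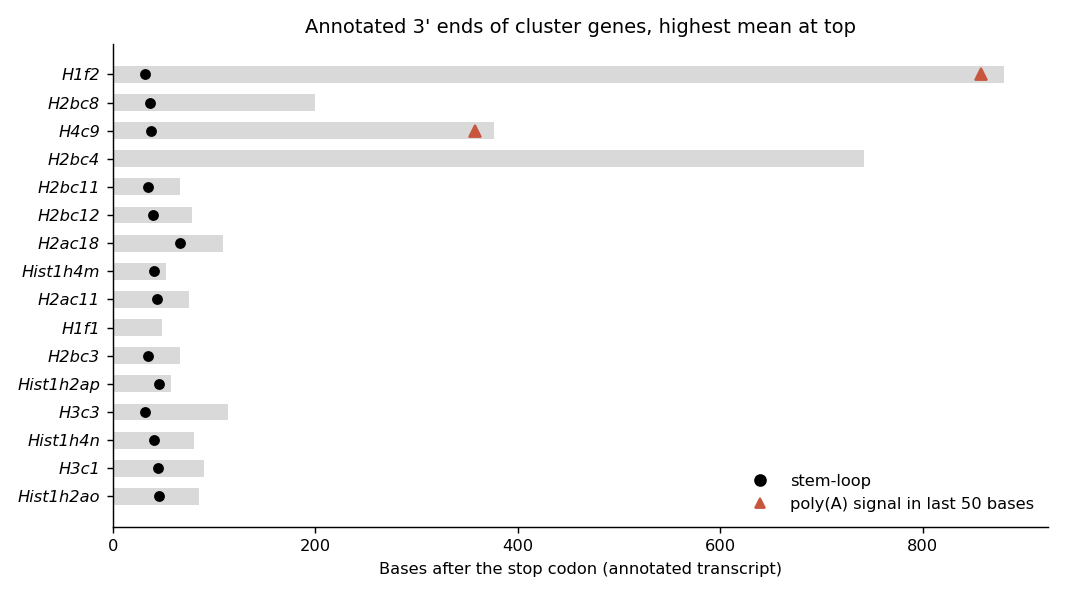
Annotated 3' ends of the 16 cluster genes of highest mean level that have more than 3 bases annotated after the stop codon, with bases after the stop codon on the x axis. Grey bars are the annotated 3' untranslated part, black points the stem-loop and red triangles a poly(A) signal in the last 50 bases, which only H1f2 and H4c9 of these genes have.

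Cluster genes together had a low summed level beside the variants, and few genes held a large part of it. H1f2, H2bc8, H4c9 and H2bc4 together made up 48.3% of the cluster sum in MHCII-lo and 62.1% in MHCII-hi. The summed level of the 60 cluster genes was 253, 241 and 257 FPKM in MHCII-lo and 247, 257 and 264 FPKM in MHCII-hi, with means of 250.4 ± 8.72 and 256.1 ± 8.95 (SD, n = 3). The fractions overlapped in this sum. The 9 variants summed to 1110, 1101 and 1125 FPKM in MHCII-lo and 1049, 1050 and 1044 FPKM in MHCII-hi, and thus to 4.45 ± 0.115 times the cluster sum in MHCII-lo and 4.09 ± 0.152 times in MHCII-hi. The variant sum was lower in MHCII-hi in every library as deposited (ratio 0.942), but the ratio was 1.03, 1.01 and 1.03 under median-ratio scaling, quantile normalization and scaling to the total without neutrophil markers.

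As deposited, the near-equal cluster sums held opposite parts. H1f2 made up 27.4% of the cluster sum in MHCII-lo and 40.8% in MHCII-hi. The other 59 cluster genes summed to 184, 173 and 188 FPKM in MHCII-lo and to 145, 149 and 162 FPKM in MHCII-hi, with no overlap and a ratio of means of 0.835. The cluster genes under 5 FPKM, 54 of the 60, summed to 113.0 ± 5.49 and 85.4 ± 9.46 FPKM. By core type, every sum except that of H1 had a lower mean in MHCII-hi. The summed H3 genes were at 22.0 to 25.0 FPKM in MHCII-lo and at 14.9 to 16.2 FPKM in MHCII-hi, with a ratio of 0.668. The H2B genes, with a ratio of 0.892, were apart as well, at 70.8 to 75.7 FPKM and 62.2 to 67.5 FPKM. The H2A sums overlapped, at 36.4 to 44.6 FPKM in MHCII-lo and 22.9 to 36.9 FPKM in MHCII-hi (ratio 0.806), and hold H2ac18, which was at 0 in some libraries and at up to 11.7 FPKM in others. The H4 sums overlapped too, at 33.0 to 40.4 FPKM and 28.6 to 35.7 FPKM (ratio 0.894). These parts of the cluster sum were formed only from the values as deposited. Median-ratio scaling took the ratio of the whole cluster sum from 1.02 to 1.12. It applies a factor per library, so it raises the ratios of the parts too. Whether the parts stay apart under it was not tested.

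**Figure D2:**
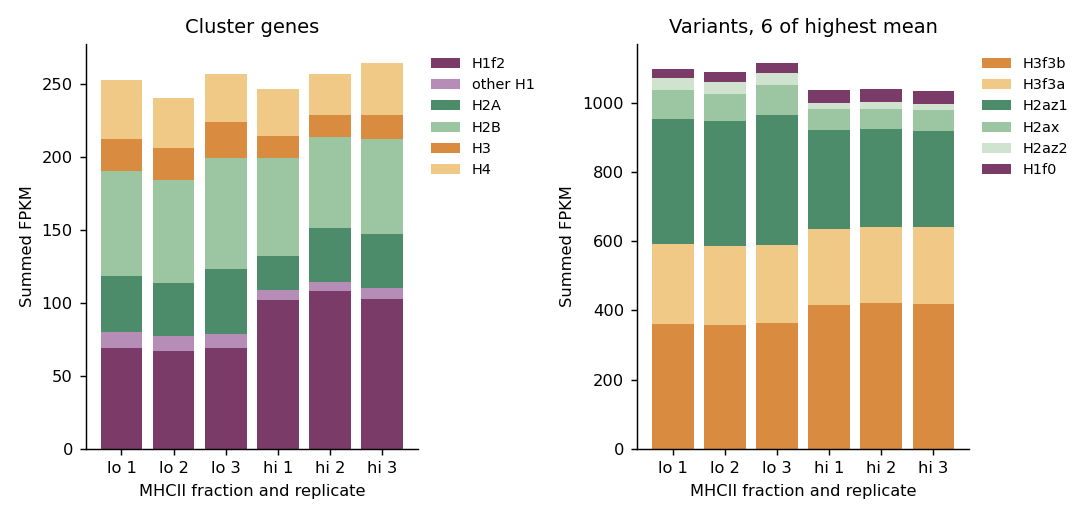
Summed FPKM in each of the 6 libraries for the cluster genes by core type, with H1f2 apart (left), and for the 6 variants of highest mean (right). The cluster bars reach 241 to 264 in all libraries, while the H1f2 segment grows from 67.2 to 69.4 in MHCII-lo to 102 to 108 in MHCII-hi.

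Tested gene by gene (limma on log2 of FPKM + 1, over genes whose mean reached 1 FPKM, Benjamini-Hochberg adjustment at 0.05), 60.9% of all 12037 tested genes were called, with 20.4% higher and 40.6% lower in MHCII-hi. Of the 60 cluster genes, 47 were tested; 1 rose (2.13%), 21 fell (44.7%) and 25 were not called. The share that fell is near the background of 40.6%, and the share that rose is below the 20.4% over all genes. The log2 fold change was negative for 39 of the 47, with a median of −0.35 beside −0.12 over all tested genes. Cluster genes were mostly of low level, with 41 of them at 1 to 5 FPKM, and of all 4682 tested genes in that range 30.9% fell, 14.6% rose and the median was −0.11. The MHCII-hi values lay wholly below the MHCII-lo values in 22 of the 47, against 45.0% of all tested genes, and wholly above in 1, H1f2. The lowest tested cluster gene was H4c1 at a mean of 1.04 FPKM and the highest untested was H2ac10 at 0.982 FPKM.

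**Figure D3:**
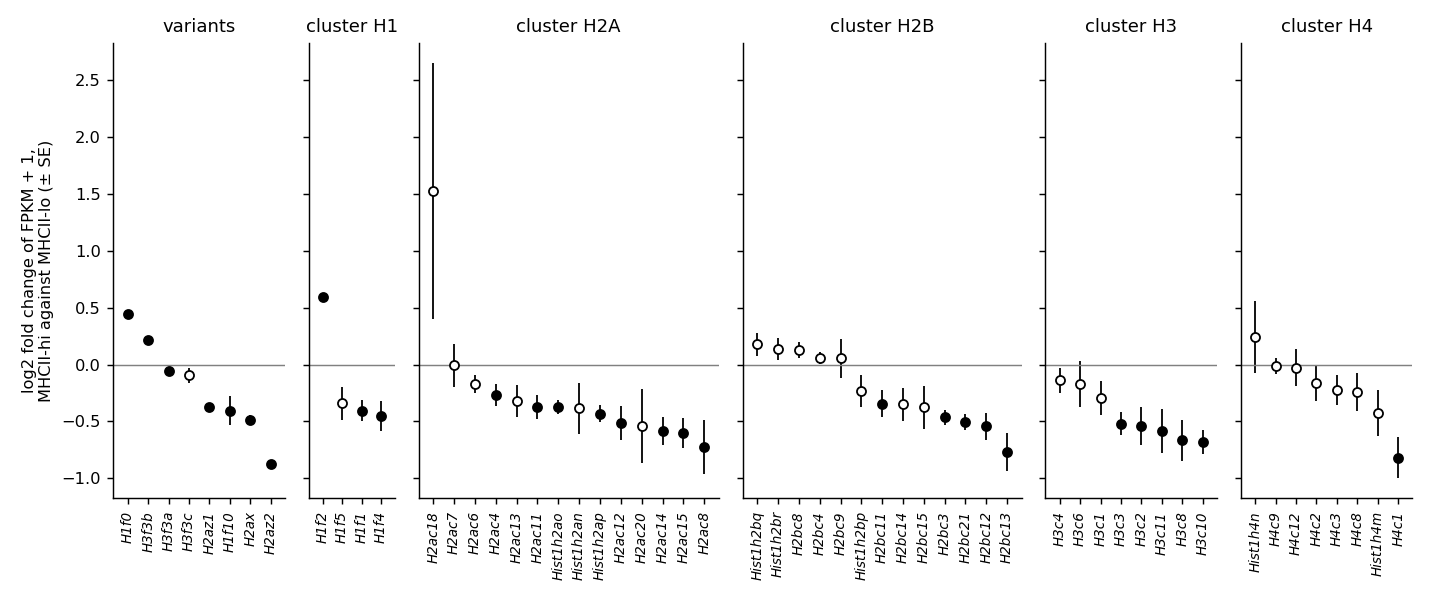
Log2 fold change of FPKM + 1 (MHCII-hi against MHCII-lo) with its standard error for the 8 tested variants and 47 tested cluster genes, ordered within each core type; filled points have an adjusted p under 0.05. H1f2 is the filled cluster point above 0, at 0.60, and the remaining filled cluster points lie below 0.

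The linker histone genes of the cluster encode the main H1 subtypes, which compact chromatin. H1f2 (subtype H1.2) was at 69.4, 67.2 and 69.2 FPKM in MHCII-lo and 102, 108 and 103 FPKM in MHCII-hi. The MHCII-hi libraries all lay above the MHCII-lo libraries. It rose by 0.60 on the log2 scale (SE 0.0303, adjusted p = 5.32e-06, 1.52 times the MHCII-lo mean) and was called in the same direction under all 15 alternatives, with log2 fold changes from 0.57 to 0.73. H1f1 (H1.1) was at 4.87, 4.73 and 3.73 FPKM in MHCII-lo and 3.30, 2.95 and 3.03 FPKM in MHCII-hi, without overlap, and fell by 0.41 (SE 0.0917, adjusted p = 0.0076). H1f4 (H1.4) went from 2.08 ± 0.344 to 1.26 ± 0.344 FPKM (log2 fold change −0.45, adjusted p = 0.0227), a call lost without MHCII-lo replicate 3 (0.0705), MHCII-hi replicate 2 (0.0673) or MHCII-hi replicate 3 (0.0662), and also without a filter on low values (0.0659), under median-ratio scaling (0.0517) and with the total without neutrophil markers (0.0515). H1f5 was not called (−0.34, adjusted p = 0.0794) but was without MHCII-hi replicate 3 (0.00528), and H1f3 stayed below 1 FPKM in all libraries. The other cluster H1 genes thus lay below 5 FPKM in all libraries.

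H2A cluster genes encode a core histone whose tail is ubiquitinated in repressed chromatin. Of 17, 14 were tested. None rose, 8 fell (57.1%, beside 40.6% over all tested genes) and 6 were not called, with a median log2 fold change of −0.38. Hist1h2ap was at 4.11, 4.89 and 4.10 FPKM in MHCII-lo and 2.75, 3.02 and 3.14 FPKM in MHCII-hi and fell by 0.43 (SE 0.076, adjusted p = 0.00243). H2ac15 was at 2.69, 3.71 and 2.92 FPKM in MHCII-lo and 2.13, 1.57 and 1.42 FPKM in MHCII-hi and fell by 0.60 (SE 0.13, adjusted p = 0.00616). In both genes no MHCII-hi library reached the lowest MHCII-lo library. Hist1h2ao (−0.37, adjusted p = 0.00181) and H2ac14 (−0.58, 0.00606), which both annotations class as a pseudogene, fell as well and were called lower under each of the alternatives that tested them.

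Calls of 4 further H2A genes depend on particular libraries and on the filter, and those of H2ac8, H2ac11 and H2ac4 also on the scaling. H2ac8 was at 2.60, 3.44 and 4.23 FPKM in MHCII-lo and 0.93, 2.55 and 1.71 FPKM in MHCII-hi, with a log2 fold change of −0.72 and an adjusted p of 0.0326, which became 0.0786 and 0.0994 without MHCII-lo replicates 2 and 3 and 0.0672 and 0.0692 without MHCII-hi replicates 1 and 3. It was 0.0525 to 0.0601 under the median-ratio, quantile and neutrophil-free scalings and 0.0887 without a filter. H2ac11 (−0.37, 0.021) was lost when MHCII-lo replicate 3 (0.0581) or when MHCII-hi replicate 1 (0.0557) was left out, under each of these scalings (0.0505 to 0.0755) and without a filter (0.0595). H2ac12 (−0.51, 0.0225) was lost without MHCII-hi replicate 2 (0.0613) or 3 (0.0658) and without a filter (0.0659). H2ac4 (−0.26, 0.0496) was lost without any library other than MHCII-hi replicate 1, at 0.0812 to 0.134, under each of the scalings (0.102 to 0.15), without a filter (0.122) and with a pseudocount of 0.1 (0.053). Of those not called, H2ac6 was without MHCII-lo replicate 3 (0.0344), H2ac13 and Hist1h2an without MHCII-lo replicate 2 (0.00899 and 0.0434). H2ac20, with 4.01, 1.46 and 0.97 FPKM in MHCII-lo, and H2ac7 were not called.

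H2ac18, the H2A gene with the highest mean, had values no other member showed. It was listed at 0, 0 and 4.94 FPKM in MHCII-lo and at 0, 10.1 and 11.7 FPKM in MHCII-hi. Each fraction thus held libraries at 0 beside libraries at 4.94 FPKM or more. Its log2 fold change of 1.52 (SE 1.13) was not called (adjusted p = 0.276), and became 2.71 (0.0304) without MHCII-hi replicate 1, 1 of the libraries at 0. Of its 50-base windows, 89.4% occur in other transcripts, so its reads can be shared out between copies and its values are uncertain.

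H2B cluster genes include the most abundant core histone transcripts of the cluster. Of 15, 13 were tested. None rose, 5 fell (38.5%, beside 40.6% over all tested genes) and 8 were not called. H2bc8 was at 20.0, 17.3 and 20.1 FPKM in MHCII-lo and 22.0, 19.4 and 21.4 FPKM in MHCII-hi, and H2bc4 at 15.2, 17.4 and 15.7 FPKM in MHCII-lo and 17.2, 16.9 and 16.3 FPKM in MHCII-hi. The fractions overlapped in both, and neither was called (0.13, adjusted p = 0.156, and 0.06, 0.368). Both were called higher under median-ratio scaling (0.25, 0.0191, and 0.18, 0.0242) and with the total without neutrophil markers (0.25, 0.0179, and 0.18, 0.0227). H2bc12, a lower gene, at 6.59, 6.33 and 8.57 FPKM in MHCII-lo and 5.08, 4.62 and 4.04 FPKM in MHCII-hi, fell by 0.54 (SE 0.116, adjusted p = 0.00604).

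Among lower H2B genes, H2bc3 was at 4.82, 4.21 and 4.55 FPKM in MHCII-lo and 2.81, 2.97 and 3.24 FPKM in MHCII-hi and fell by 0.46 (SE 0.066, adjusted p = 0.000889). The annotated transcript of H2bc21 ends in a poly(A) signal and holds no stem-loop of the searched form. H2bc21 was at 2.58, 2.95 and 2.88 FPKM in MHCII-lo and 1.85, 1.56 and 1.64 FPKM in MHCII-hi. It fell by 0.50 (SE 0.0734, adjusted p = 0.001). H2bc13 fell by 0.77 (SE 0.17, adjusted p = 0.00674). The fractions did not overlap in any of these genes. H2bc11, at 9.37 ± 1.27 and 7.18 ± 0.973 FPKM (−0.34, 0.0371), was lost without MHCII-lo replicate 1 (0.077) or 3 (0.103) and without MHCII-hi replicate 2 (0.058) or 3 (0.0937), under the median-ratio, quantile and neutrophil-free scalings (0.0771 to 0.142) and without a filter (0.0935). Of those not called, H2bc14 was without MHCII-hi replicate 1 (0.0271) and H2bc15 without MHCII-hi replicate 3 (0.00512).

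H3 cluster genes encode the replication-coupled H3.1 and H3.2. Of 11, 8 were tested, and none rose and 5 fell (62.5%, beside 40.6% over all tested genes). All 8 had a negative log2 fold change, with a median of −0.53. H3c3 was at 3.71, 4.97 and 3.86 FPKM in MHCII-lo and 2.43, 2.56 and 2.81 FPKM in MHCII-hi and fell by 0.52 (SE 0.1, adjusted p = 0.00376). H3c10 was at 2.14, 2.53 and 1.78 FPKM in MHCII-lo and 0.94, 0.87 and 1.05 FPKM in MHCII-hi and fell by 0.68 (SE 0.105, adjusted p = 0.00127). The fractions were apart in both. H3c8 (−0.67, 0.0159) was lost without MHCII-lo replicate 3 (0.0539), and H3c2 (−0.54, 0.0276) without MHCII-hi replicate 2 (0.0811) or 3 (0.0625) and without a filter (0.0704). H3c11 (−0.59, 0.0353), in which the fractions overlapped, was lost without MHCII-lo replicate 1 (0.0947) or 3 (0.0889) or MHCII-hi replicate 1 (0.093) or 2 (0.0904), under the same scalings (0.0562 to 0.0656) and without a filter (0.0949).

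H4 cluster genes all encode the same H4 protein. Of 12, 8 were tested, and 1 fell (12.5%, beside 40.6% over all tested genes) and 7 were not called. H4c9 was at 18.2, 17.3 and 15.6 FPKM in MHCII-lo and 15.7, 16.7 and 18.3 FPKM in MHCII-hi. The fractions overlapped, and it was not called (log2 fold change −0.01, SE 0.0733, adjusted p = 0.891), with a sign that changed under each of the scalings. H4c1 was at 1.51, 1.25 and 2.02 FPKM in MHCII-lo and 0.43, 0.80 and 0.21 FPKM in MHCII-hi, without overlap, and fell by 0.82 (SE 0.177, adjusted p = 0.00626). H4c2 was called lower without MHCII-lo replicate 3 (0.0272), H4c8 without MHCII-hi replicate 3 (0.0313) and Hist1h4m without either of these (0.0497 and 0.0385).

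**Figure D4:**
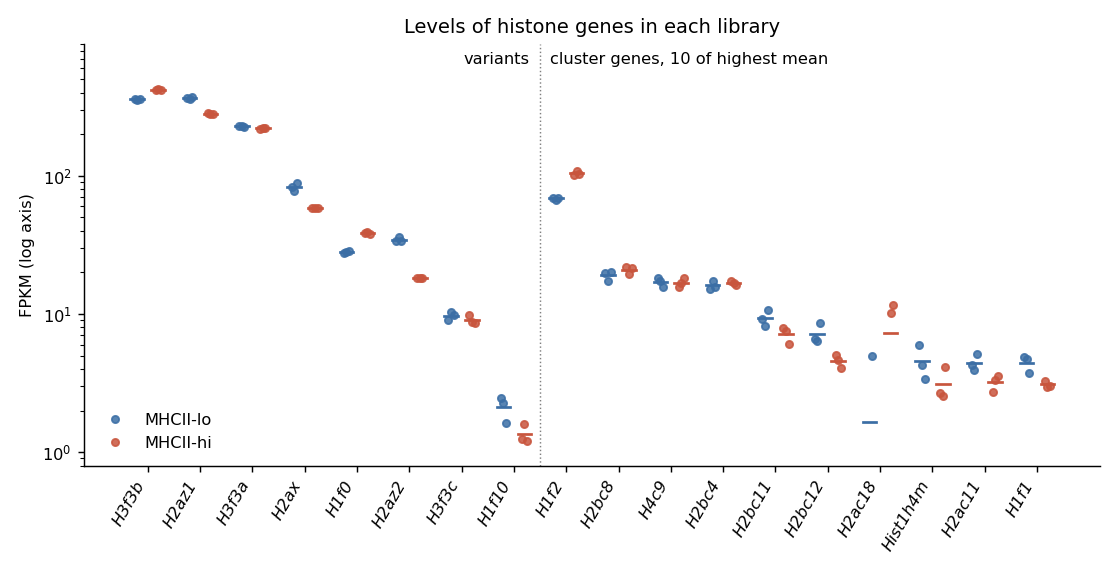
FPKM of the 8 tested variants and of the 10 cluster genes of highest mean, on a log axis, with each point a library and bars the fraction means; the libraries in which H2ac18 is at 0 have no point, but count in its means. H1f2 lies at 67.2 to 108 FPKM, above H2bc8, the next cluster gene, at 17.3 to 22.0 FPKM.

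H2A and H2B genes of the clusters often share a promoter: 12 such pairs were found with start sites 176 to 302 bases apart on opposite strands. H2bc8 and H2ac8 are the closest pair, and the 175 bases between their start sites (RefSeq promoter table, GRCm38.p6, chr13:23571221-23571395, plus strand, towards H2bc8) are shown because this pair held the widest difference in level. Capitals mark CCAAT (also as ATTGG on the other strand), the octamer ATTTGCAT, which is bound by OCT1 in H2B promoters, and the TATA box TATAAA.
H2ac8-H2bc8: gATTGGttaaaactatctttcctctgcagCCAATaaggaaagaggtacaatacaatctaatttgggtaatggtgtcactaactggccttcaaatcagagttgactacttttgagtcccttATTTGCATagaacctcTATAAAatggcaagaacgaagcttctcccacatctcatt
The octamer and the TATA box lie 47 and 33 bases before the H2bc8 start, with no overlap of motifs. Over the 300-base promoter windows of RefSeq, read on both strands, CCAAT was in 39 of 45 cluster promoters (86.7%) and 37.8% of all 27025, TATAAA in 28 (62.2%) and 14.1%, and the octamer in 10 (22.2%) and 1.74%. All octamers of cluster promoters lay in H2A and H2B genes, 5 of 12 and 5 of 10, and CCAAT was in all cluster promoters of H1, H2A, H2B and H3 with a window but in 3 of 9 of H4. Windows of divergent partners overlap, so a motif between them can count for both genes. The octamer printed here, for example, lies 47 bases from the H2bc8 start and 120 from that of H2ac8. The counts are thus of promoters and not of separate motifs. The E2F motif TTTGGCGC was in none of the 45 and in 0.533% of all.

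Members of a pair differed in deposited FPKM, which divide by a model length not known here. H2ac6, for example, is 487 bases long in RefSeq and 2482 in GENCODE. How far partners differ in RNA can therefore not be read from these ratios. H2bc8 stood at 5.82 ± 1.61 times H2ac8 in MHCII-lo and 14.6 ± 8.22 times in MHCII-hi (SD, n = 3), ratios that overlapped (7.67, 5.04 and 4.75, and 23.7, 7.62 and 12.5; exact permutation test of log ratios, two-sided, p = 0.2). H2bc4 stood at 5.54 ± 0.809 and 6.75 ± 0.268 times H2ac6, which did not overlap (exact permutation p = 0.1, the smallest that 3 against 3 libraries allow). The H2B gene was the higher in 7 of the 12 pairs and the H2A gene in 5. In 9 of the 11 pairs with both genes tested, the log2 fold change of the H2A gene was below that of its H2B partner, and in 5 the H2A gene was called lower and the H2B gene was not called. The reverse held in 2 pairs, H2ac20 with H2bc21 and H2ac13 with H2bc13, and 2 of the 5 hold Hist1h2bq and Hist1h2br, whose reads cannot be parted. Whether partners of a pair changed differently was tested in the pairs given with a ratio here and in 2 more, H2bc11 with H2ac11 (exact p = 0.7) and H2bc12 with H2ac12 (exact p = 0.3), and not in the others.

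**Figure D5:**
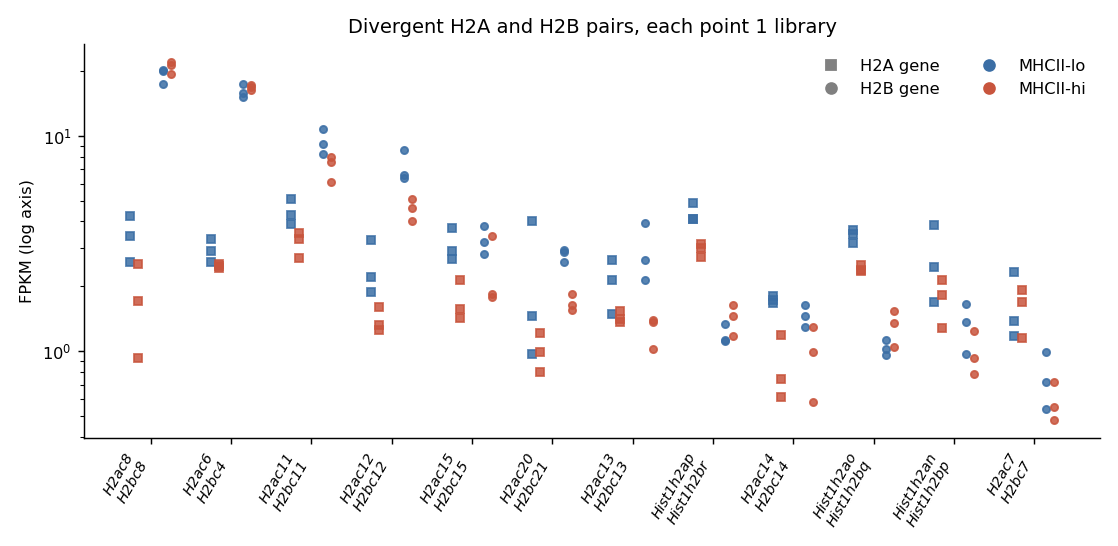
FPKM on a log axis of the 12 divergent pairs, with squares for the H2A gene (left) and circles for the H2B gene (right), each point a library, blue for MHCII-lo and red for MHCII-hi. The H2B gene is far above its partner in the first pairs, with H2bc8 at 17.3 to 22.0 FPKM beside H2ac8 at 0.93 to 4.23 FPKM.

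Copies limit what can be said of cluster genes taken alone. At a median, 53.2% of the 50-base windows of a cluster transcript occur in another transcript, and 31 of the 60 share more than 50% of theirs. Of the 26 of these that were tested, 14 fell (53.8%) and none rose. Of the 21 tested with fewer shared windows, 7 fell (33.3%) and 1 rose (4.76%). Over all tested genes 40.6% fell and 20.4% rose, and 30.9% and 14.6% of those at 1 to 5 FPKM. H1f2 shares 8.54% of its windows, H4c9 28.9% and H2bc21 none. The Hist1h2bq and Hist1h2br transcripts are shared at 100% and 99.8%, and reads cannot part them.

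Of the variants, 8 of 9 were tested, and 2 rose (25.0%) and 5 fell (62.5%), beside 20.4% and 40.6% over all tested genes. Under median-ratio scaling and with the total without neutrophil markers 3 were higher and 3 lower, with H3f3a turned to higher and the call of H1f10 lost. Of all 12033 genes tested under the former, 3396 were higher and 3119 lower, and of 12040 under the latter, 3417 and 3095. H2A.Z, which marks promoters and is placed by the SRCAP and EP400 complexes, is encoded by H2az1 and H2az2. H2az1 was at 363, 362 and 375 FPKM in MHCII-lo and 287, 281 and 279 FPKM in MHCII-hi. It fell by 0.38 (SE 0.0202, adjusted p = 7.28e-06), with no overlap. H2az2 was at 33.7, 36.0 and 33.5 FPKM in MHCII-lo and 18.2, 18.4 and 18.2 FPKM in MHCII-hi. It fell by 0.88 (SE 0.0352, adjusted p = 1.74e-06). As deposited this was the largest fall in log2(FPKM + 1) among the tested histone genes, but with a pseudocount of 0.1 H4c1 (−1.65) and 6 other cluster genes fell by more than H2az2 (−0.91). The MHCII-hi mean was 0.530 times that of MHCII-lo for H2az2 and 0.301 times for H4c1. The ratio of H2az2 to H2az1 was 0.0938 ± 0.00501 in MHCII-lo libraries and 0.0646 ± 0.00106 in those of MHCII-hi, without overlap (exact permutation p = 0.1, the smallest possible).

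H2AX is the variant phosphorylated at DNA breaks. Its gene H2ax was at 83.0, 77.7 and 88.1 FPKM in MHCII-lo and 58.8, 58.8 and 58.6 FPKM in MHCII-hi, without overlap, and fell by 0.49 (SE 0.0439, adjusted p = 9.4e-05). Its annotated transcript holds both the stem-loop printed above and, 822 bases after it, the transcript's end with an ATTAAA. Its ratio to H2az1 was 0.226 ± 0.0105 in MHCII-lo libraries and 0.208 ± 0.00253 in those of MHCII-hi, without overlap (exact permutation p = 0.1, the smallest possible).

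H3.3, placed outside replication by HIRA and by DAXX with ATRX, is encoded by H3f3a and H3f3b, which make the same protein. H3f3b, the highest of all members, was at 360, 356 and 362 FPKM in MHCII-lo and 415, 422 and 419 FPKM in MHCII-hi. It rose by 0.22 (SE 0.015, adjusted p = 2.48e-05), with no overlap. H3f3a was at 231, 228 and 227 FPKM in MHCII-lo and 220, 220 and 221 FPKM in MHCII-hi. It was called lower as deposited, by 0.05 (SE 0.0161, adjusted p = 0.0245), but higher under median-ratio scaling (0.08, adjusted p = 0.00628) and with the total without neutrophil markers (0.08, 0.00579), and the call was lost without MHCII-lo replicate 1 (0.0738) or 2 (0.0597) and without MHCII-hi replicate 1 (0.0589), 2 (0.0624) or 3 (0.0551), under quantile normalization (0.435), without a filter (0.0515) and without the intensity trend (0.169), so its direction is not settled. The ratio of H3f3b to H3f3a, which scaling a library by a factor does not alter, was 1.56, 1.56 and 1.60 in MHCII-lo and 1.89, 1.92 and 1.90 in MHCII-hi, without overlap (exact permutation p = 0.1, the smallest possible). H3f3c, a processed pseudogene in GENCODE that shares 73.8% of its windows, was at 9.71 ± 0.597 and 9.05 ± 0.732 FPKM and was not called (−0.09, adjusted p = 0.263).

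The variant linker histones had fold changes of opposite sign. H1f0, which encodes H1.0, a subtype known from resting and differentiated cells, was at 27.8, 28.1 and 28.5 FPKM in MHCII-lo and 38.7, 39.4 and 37.9 FPKM in MHCII-hi. It rose by 0.45 (SE 0.0269, adjusted p = 1.33e-05), with no overlap. H1f10 was at 2.45, 2.28 and 1.62 FPKM in MHCII-lo and 1.24, 1.59 and 1.20 FPKM in MHCII-hi (−0.41, SE 0.126, adjusted p = 0.0277). That call was lost without MHCII-lo replicate 1 (0.0875) or 2 (0.0836) and without MHCII-hi replicate 1 (0.076) or 3 (0.0799), under the median-ratio, quantile and neutrophil-free scalings (0.051 to 0.0674) and without a filter (0.0778). Among the members, H1f2, H1f0 and H3f3b were the 3 genes that rose, and the ratio of H1f2 to H1f0 was 2.44 ± 0.0526 and 2.70 ± 0.0623, without overlap (exact permutation p = 0.1, the smallest possible).

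The remaining members were mostly silent or low. Of the germ cell genes, H1f8 was at 0 in all libraries and H1f6 and H2bc1 stayed below 0.2 FPKM, and the pseudogene H1f11-ps was at 0. The pseudogenes H3f3a-ps1 (5.31 ± 1.10 and 5.64 ± 1.25 FPKM), H3f3a-ps2 (4.83 ± 0.342 and 3.87 ± 0.75) and H2ac5-ps (2.67 ± 0.612 and 1.60 ± 0.807) were tested and not called. H3f3a-ps2 was called lower without MHCII-hi replicate 2 (0.0187). H3f3a-ps1 and H3f3a-ps2 share 54.3% and 82.0% of their windows, so H3f3a reads can lie in them. The antisense RNA H3f3aos was at 0.15 to 0.21 FPKM in MHCII-lo and 0.31 to 0.39 FPKM in MHCII-hi and was not tested; whether counting used strand is not stated.

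Lists of histone mRNA processing, poly(A) tailing, histone chaperones and DNA replication held 118 tested genes. Of these, 81 were lower and 6 higher in MHCII-hi, beside 40.6% and 20.4% over all tested genes. A mean of at least 5 FPKM was reached by 108 of the 118. Of all tested genes at that level, 46.7% fell and 24.0% rose. The share that fell differed between lists. Of 24 tested genes of histone mRNA 3' end processing and decay, 13 fell and 2 rose (median log2 fold change −0.14). Tut7, a uridylyl transferase that tags mRNAs for decay, rose from 10.5 ± 0.303 to 20.2 ± 0.562 FPKM (0.89, adjusted p = 2.11e-06), and the Sm proteins Snrpg (−0.49, 2.8e-06), Snrpb (−0.52, 2.11e-05) and Snrpe (−0.54, 4.93e-05), which also serve splicing, fell. Slbp, named here after its values were seen as the gene of the stem-loop binder, fell from 24.8 to 19.3 FPKM (−0.35, adjusted p = 0.000264). Of 14 genes of the poly(A) tailing machinery, 8 fell and 1 rose (median −0.18), with Pabpc1, the cytoplasmic poly(A) binder, at 271.5 ± 0.378 and 209.4 ± 1.17 FPKM (−0.37, adjusted p = 1.76e-06), Nudt21 (−0.59, 5.84e-05), Cpsf6 (−0.30, 0.000283) and Pabpn1 (−0.23, 0.00106). Under median-ratio scaling 8 and 3 of the first list and 4 and 3 of the second were called lower and higher. Of all 12033 genes tested under that scaling, 3119 were lower and 3396 higher.

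Replication-coupled chaperones and importers fell in 12 of 14 tested genes with none higher (median −0.32). Pcna, the clamp that recruits the chaperone CAF-1, went from 186.2 ± 4.24 to 128.5 ± 1.65 FPKM (−0.53, adjusted p = 2.55e-06), and Nasp, the H3-H4 reservoir, from 26.5 ± 0.47 to 19.6 ± 0.196 FPKM (−0.42, 2.31e-05). Mcm2 (−0.43, 2.87e-05) and the acetyltransferase Hat1 (−0.45, 9.28e-05) fell as well. Of 35 genes of DNA replication and S phase, 33 fell and none rose (median −0.36). Those of smallest p were the helicase subunits Mcm6 (−0.50, 3.05e-06), Mcm7 (−0.49, 3.37e-06), Mcm3 (−0.49, 4.83e-06) and Mcm5 (−0.46, 1.82e-05), while the falls of Cdt1, a licensing factor (−0.62, 1.82e-05), and Gins2, another helicase subunit (−0.67, 0.000664), both named after their values were seen, were larger. Under median-ratio scaling 10 of 14 and 26 of 35 were lower and none higher in either list. Beside this, 3119 of all 12033 genes tested under that scaling were lower and 3396 higher.

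Replication-independent chaperones and H2A.Z exchange factors were mixed, with 7 of 21 lower and 2 higher (median −0.08). Dek, an H3.3 chaperone, fell from 170.9 ± 4.90 to 115.8 ± 0.933 FPKM (−0.56, adjusted p = 2.99e-06), and Anp32e, which removes H2A.Z, (−0.35, 1.58e-05) and Yeats4 (−0.33, 0.00187) fell, while Atrx rose (0.21, 0.00106). Of 10 general nucleosome chaperones 8 fell and 1 rose (median −0.23), among them Anp32b (−0.44, 1.38e-06), Nap1l1 (−0.62, 1.97e-06), Npm1 (−0.31, 2.28e-05) and Npm3 (−0.53, 2.81e-05). Under median-ratio scaling 5 and 4 of the first list and 6 and 1 of the second were lower and higher, beside 3119 and 3396 of all 12033 tested genes.

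Markers of other states and cell types were counted as well, only on the values as deposited. Over all tested genes 40.6% were lower and 20.4% higher, with a median log2 fold change of −0.12. Of 8 proliferation markers 5 fell and none rose, with a median of −0.195. Their sum was 342.7 to 348.3 FPKM in MHCII-lo and 303.4 to 307.1 FPKM in MHCII-hi. Of 12 erythroid markers 11 fell, and their sum went from 485 to 494.8 FPKM in MHCII-lo to 323.7 to 339.2 FPKM in MHCII-hi. The neutrophil markers rose, as given above, in 20 of 20. Of 10 B cell markers 2 were tested (sum 13.9 to 16.0 FPKM in MHCII-lo, 17.0 to 17.7 in MHCII-hi; 1 rose), and of 10 plasma cell markers 9 were tested (sum 4534 to 4557 and 4240 to 4276 FPKM; 4 rose and 1 fell). The part of these cells in the levels of histone genes was not tested.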

How the data were processed

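The authors deposited 1 table per library of gene names with 1 value each. No header names the unit; the deposited values were taken as FPKM, since the submitters' processing notes name fastp, HISAT2, StringTie and GRCm38 (mm10), without versions, and the sums are no fixed total. Per the labels' protocols, a stranded mRNA library kit was used, which captures poly(A) RNA. No step that 1 fragment would give was found in low values of single-exon genes (highest mean cosine 0.0799 to 0.15), so read depth stays unknown and values carry no counting error. Of repeated symbols (70 extra rows) the row of highest mean was kept. Values were compared as log2(FPKM + 1), which understates changes of low genes, with limma 3.58.1 (R 4.3.3, intensity trend, group as the only term) for genes whose mean reached 1 FPKM, after a test on simulated data, with Benjamini-Hochberg adjustment over all of them. Ratios were compared with exact permutation tests (scipy 1.17.1). Transcripts are GENCODE M21 (76 members matched), promoters RefSeq (56 matched). Same-numbered replicates did not deviate together (r = −0.0533, −0.0456 and −0.0435), so the numbers pair nothing. All tested members could be named, and of each list the 4 with the smallest p. Members, lists and classes were chosen with earlier results of these data known. Alternatives were other pseudocounts, filters, scalings and variance models, a replicate block and leaving out each library.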

Additional observations from a re-analysis of the deposited data

How the results depend on the processing

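H1f2, H3f3b and H1f0 higher and H2az1, H2az2, H2ax and 12 of the 21 lower cluster genes lower kept their call under every alternative that tested them. Median-ratio scaling gave 3119 lower genes in all beside 4883, with 3396 higher beside 2450, 3 higher and 15 lower cluster genes, 3 lower variants beside 5, and 11 higher list genes beside 6; the total without neutrophil markers gave 3095, with 3417 higher, 3, 15, 3 and 11; quantile normalization gave 3 lower variants. Without a filter 13 cluster genes and 3 variants were lower; with a mean of at least 5 FPKM, which leaves 6 cluster genes, 2 were lower and the cluster median turned to 0.0229. Leaving out a library gave 1 to 2 higher and 15 to 20 lower cluster genes and 3 to 5 lower variants, and the 2 higher came without MHCII-hi replicate 1. Leaving out the members an annotation calls pseudogenes, chosen after seeing the data, gave 20 lower. The cluster sum ratio of 1.02 became 1.12 under median-ratio scaling and with the total without neutrophil markers, and turned to 0.835 without H1f2; the variant ratio of 0.942 turned to 1.03, 1.01 and 1.03 under median-ratio, quantile and neutrophil-free scaling and was 0.835 without H3f3b. H3f3a turned to 0.0776 and 0.0798 under median-ratio and neutrophil-free scaling. Genes not called changed sign: under median-ratio, quantile and neutrophil-free scaling H4c9 (0.112, 0.0369 and 0.114), H4c12 (0.0506, 0.0216 and 0.0518) and H2ac7 (0.0725, 0.046 and 0.0741), and under median-ratio and neutrophil-free scaling H3f3c (0.0268 and 0.0288). Without 1 library each, ranges that crossed 0 were −0.0723 to 0.0372 for H4c9, −0.141 to 0.107 for H4c12, −0.132 to 0.175 for H2ac7, −0.312 to 0.00507 for H3c6, −0.0271 to 0.574 for Hist1h4n, −0.0816 to 0.153 for H3f3a-ps1 and −0.0337 to 0.203 for H2bc9. The causes were not tested. The replicate number as a replicate block, which pairs nothing here, gave 2 higher cluster genes beside 1 and 22 lower beside 21, with calls gained for H2bc8 (0.029), H1f5 (0.0408), H3c1 (0.0124), H2bc15 (0.0324) and the pseudogene H3f3a-ps2 (0.0301) and lost for H2ac4 (0.0697), H2bc11 (0.0778) and H3f3a (0.0555); the deviations of no same-numbered pair correlated above 0. Depth is unknown, so the error of low values is known only from the spread of libraries, with a median coefficient of variation of 9.11% and 9.72% at 1 to 5 FPKM.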

Other observations

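Further histone genes carry symbols that the rule does not hold, and 4 of them, chosen after their values were seen, were tested in the same fit. Macroh2a1, which encodes macroH2A1, a large H2A variant of silent chromatin, was at 90.5, 92.3 and 93.4 FPKM in MHCII-lo and 57.7, 56.2 and 55.0 FPKM in MHCII-hi. It fell by 0.70 on the log2 scale (SE 0.0265, limma adjusted p = 1.32e-06), with no overlap. Cenpa, the H3 variant of centromeres, was at 19.1, 19.5 and 20.2 FPKM in MHCII-lo and 13.9, 14.9 and 15.0 FPKM in MHCII-hi and fell by 0.41 (SE 0.0415, adjusted p = 0.000181). H2aj fell by 0.44 (adjusted p = 0.00133) and H2aw by 0.33 (adjusted p = 0.000828). In each of the 4 the MHCII-hi libraries lay below the MHCII-lo libraries. Each was called lower under median-ratio scaling, quantile normalization and the total without neutrophil markers, with log2 fold changes from −0.67 to −0.22. Of all tested genes, 45.0% lay wholly below and 40.6% were called lower as deposited. Since the 4 were chosen with their values known, their shared direction does not stand for other histone genes.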
